A study of Oryza sativa Indica Group with 36 samples.

Results

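The genes described here are BGIOSGA025169, BGIOSGA013214, BGIOSGA037804 and BGIOSGA005777, the 4 rice genes that the study's heatmap of plant-hormone biosynthesis labels 9-cis-epoxycarotenoid dioxygenase (NCED). They were chosen by that annotation, and all 4 were found among the 43254 genes of the deposited tables. The study showed them as differentially expressed in the same libraries, so the direction of their changes is not independent evidence. Their coding lengths, which were recovered from the ratio of counts to FPKM, were 1572, 1827, 1842 and 1869 bp in the order given above. The tables pair these identifiers with no symbol, position or sequence.

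Seedlings of the indica cultivar 9311 (genotype label WT, letter A) and of its near-isogenic line DC907 (genotype label NIL, letter B) were raised hydroponically to the four-leaf stage. They were left untreated (ACK and BCK), cooled at 8 ℃ for 1 day (AT1 and BT1) or 3 days (AT3 and BT3), or cooled and then returned to room temperature. Recovery lasted 1 day (AT1H1, AT3H1, BT1H1 and BT3H1) or 3 days (BT1H3 and BT3H3). RNA of stems and leaves was sequenced in 3 biological replicates for each of the 12 groups, 36 libraries in all.

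NCED cleaves epoxycarotenoids in the plastid to xanthoxin, the precursor of abscisic acid (ABA), and this cleavage is regarded as the rate-limiting step of ABA synthesis. Plants carry several NCED paralogues, and which of them is transcribed depends on the organ and on the stress. ABA is removed mainly by 8'-hydroxylases of the cytochrome P450 family CYP707A, and its signal is passed on by SnRK2 protein kinases, which in rice are called SAPK.

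The libraries held 10176660 to 18789555 counts, with a median of 16621963, and the shallowest was BT1 replicate 3. The cultivar was marked by 78 genes, chosen because they separated all ACK, AT1 and AT1H1 libraries from all BCK, BT1 and BT1H1 libraries. That the former resembled DC907 at 5.13% or less of the markers follows from this choice. The DC907 groups left out of it were between 92.3% (BT3 replicate 1) and 98.7% (BT3H1 replicate 2). Each library labelled AT3 or AT3H1 resembled DC907 at 82.1% or more of the markers. These 6 libraries are therefore called by their labels, and their results are given with both controls where it matters. Ribulose bisphosphate carboxylase (BGIOSGA037257), a defining gene of green tissue, was between 3499.5 and 19374 FPKM in the controls. It was below every control in 12 libraries. They were all 3 of AT3H1 (74.5, 455 and 1013 FPKM), replicates 1 and 2 of AT3 (1897 and 91.1), all 3 of BT1H1 (1597, 2325 and 3004), replicates 2 and 3 of BT3 (1014 and 2715) and replicate 1 of BT3H1 (1780) and of BT3H3 (2793). In such bulk samples, fewer cells of a type and less RNA per cell cannot be told apart.

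In plants that were not cooled, BGIOSGA005777 supplied nearly all of the summed FPKM of these 4 genes. Whether further NCED genes are expressed could not be checked, because the tables pair the identifiers with no symbol. Its FPKM was 56.3, 317 and 247 in ACK and 346, 196 and 74.5 in BCK. The other paralogues were low in the same libraries, as BGIOSGA025169 did not exceed 5.14 FPKM and BGIOSGA037804 did not exceed 4.18. BGIOSGA013214 reached 20.7 FPKM in BCK replicate 2 and was between 0.695 and 4.39 in the other 5 controls. BGIOSGA005777 thus made up 97.5 ± 0.755% of the summed FPKM of the 4 genes in ACK and 93.4 ± 5.71% in BCK (SD, n = 3). The sum itself varied widely, from 57.5 to 328 FPKM in ACK and from 78.0 to 353 in BCK. ACK replicate 1 and BCK replicate 3 held the lowest sums of their groups.

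The controls of both cultivars were compared first. None of the 4 genes was called between BCK and ACK in the quasi-likelihood test of edgeR, with log2 fold changes from 0.12 to 1.86. The p-values were adjusted by Benjamini-Hochberg over all genes tested. In this comparison 0.0439% of all genes passed an adjusted p of 0.05. At an unadjusted p under 0.05, 0 of the 4 passed, and DESeq2 also called 0.

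**Figure D1:**
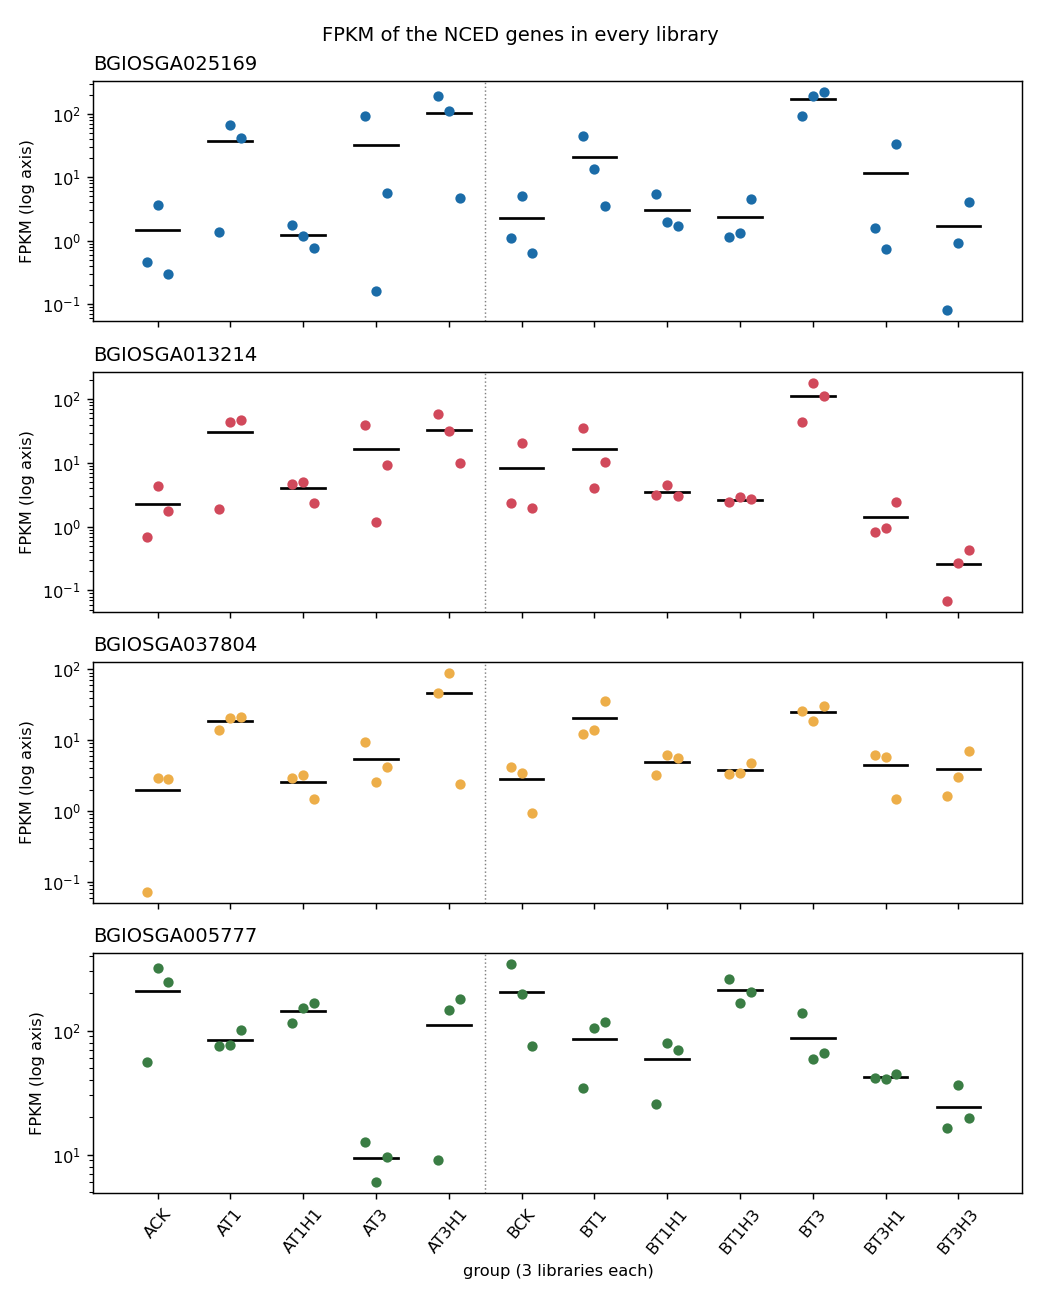
FPKM of each NCED gene in the 36 libraries (log axis), grouped by treatment. Points are libraries and bars are group means, with groups labelled 9311 left of the dotted line and those labelled DC907 right of it. BGIOSGA005777 is high in the controls, whereas the other 3 genes have their highest group means in BT3 or AT3H1.

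After 3 days of cold in DC907, the 3 genes that were low in the controls were upregulated. BGIOSGA025169 was 91.1, 195 and 222 FPKM in BT3, against 1.09, 5.14 and 0.639 in BCK. BGIOSGA013214 was 44.7, 183 and 115 FPKM in BT3, against 2.33, 20.7 and 1.96 in BCK. BGIOSGA037804 was 25.7, 18.5 and 30.6 FPKM in BT3, against 4.18, 3.42 and 0.939 in BCK. For each of these genes the lowest BT3 library lay above the highest BCK library. The share of all genes whose groups separate in this way was not determined, here or for the ranges given below.

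BGIOSGA025169 rose 79.2-fold (log2 6.31 ± 0.88 SE), with an adjusted p of 0.00738 in edgeR's quasi-likelihood test. BGIOSGA013214 rose 14.8-fold (log2 3.88 ± 1.00 SE, edgeR adjusted p = 0.0279), and BGIOSGA037804 rose 8.68-fold (log2 3.12 ± 0.63 SE, edgeR adjusted p = 0.0144). Of the 4 NCED genes 3 were therefore called in BT3, where 33.9% of all genes tested were called. BGIOSGA005777 was 138, 58.7 and 65.5 FPKM in BT3, which overlapped BCK, and its change of -1.25 ± 0.73 on the log2 scale did not pass (edgeR adjusted p = 0.218).

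The call of BGIOSGA025169 was retained in all 6 edgeR fits that left out 1 library (adjusted p from 0.00642 to 0.0396). That of BGIOSGA037804 was lost without BT3 replicate 3 (edgeR adjusted p = 0.0646). That of BGIOSGA013214 was lost without BCK replicate 1 (0.0596), BCK replicate 3 (0.0575), BT3 replicate 2 (0.0727) or BT3 replicate 3 (0.0856), each an edgeR adjusted p. The fold change moved by a factor of more than 1.5 without BCK replicate 2 for BGIOSGA013214 (to log2 5.53) and BGIOSGA025169 (to log2 7.43), and without BCK replicate 1 for BGIOSGA037804 (to log2 3.71).

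The carboxylase genes were lower in BT3 than in BCK. BGIOSGA037257 was 7389, 1014 and 2715 FPKM, below the 9538 to 19374 of BCK, and changed by -2.08 ± 0.96 on the log2 scale without passing (edgeR adjusted p = 0.135). BGIOSGA037260 was 2661, 591 and 1106 FPKM in BT3, against 4994, 2433 and 4940 in BCK (log2 -1.48 ± 0.78, edgeR adjusted p = 0.182). Their part in the changes of the NCED genes was not tested.

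The NCED genes therefore contributed differently in BT3 than in BCK. BGIOSGA025169 made up 41.5 ± 10.5% of the summed FPKM, BGIOSGA013214 27.2 ± 12.7%, BGIOSGA005777 24.7 ± 18.5% and BGIOSGA037804 6.57 ± 2.30% (SD, n = 3). The sum was 299, 455 and 433 FPKM in BT3, the highest group mean of the series at 396 ± 84.4 FPKM. BT3 was also the only group in which BGIOSGA005777 stayed under 50% of the sum in all 3 libraries.

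**Figure D2:**
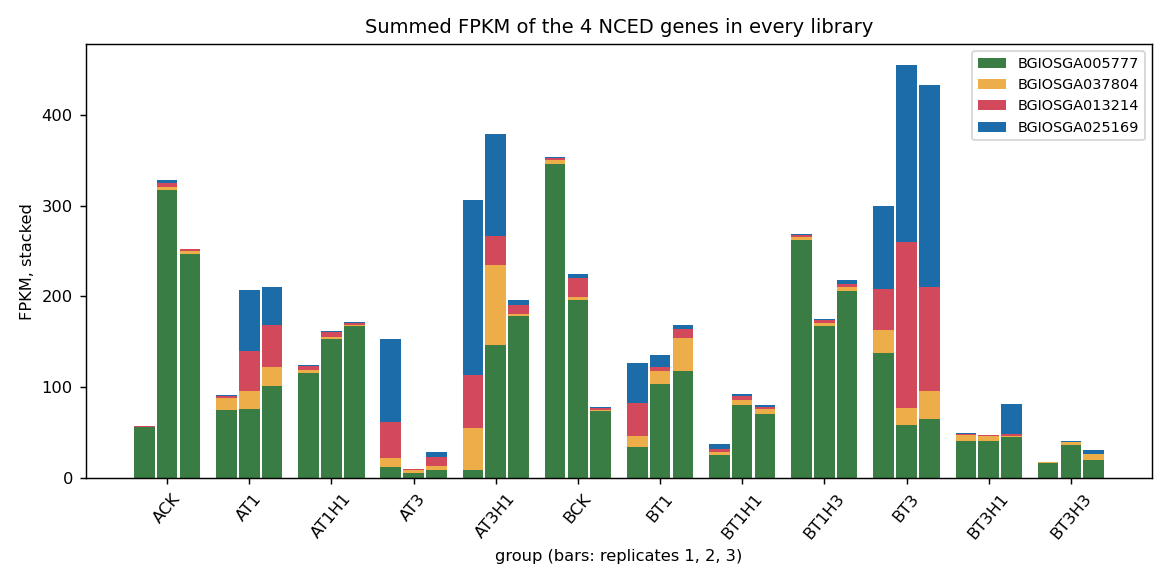
FPKM of the 4 NCED genes stacked for each of the 36 libraries (bars are replicates 1, 2 and 3 of each group, axis from 0). The controls consist almost wholly of BGIOSGA005777, whereas BGIOSGA025169 and BGIOSGA013214 make up most of BT3 replicates 2 and 3 and 30.5% and 14.9% of BT3 replicate 1, where BGIOSGA005777 holds 46.0%.

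After 1 day of cold, the same genes were higher than the controls in most libraries, but the libraries of a group differed strongly. In AT1, BGIOSGA025169 was 1.38, 68.0 and 41.3 FPKM and BGIOSGA013214 was 1.91, 43.4 and 47.0 FPKM. Replicate 1 was thus within the ACK range for both genes, whereas replicates 2 and 3 were far above it. BGIOSGA037804 was 13.9, 20.3 and 20.9 FPKM in AT1, against 0.0726, 2.91 and 2.88 in ACK, so that replicate 1 was raised for this paralogue as well.

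Of the 4 genes 2 were called in AT1, beside 30.5% of all genes tested. BGIOSGA013214 rose by 4.20 ± 1.22 on the log2 scale (SE, edgeR adjusted p = 0.043) and BGIOSGA037804 by 3.70 ± 1.06 (edgeR adjusted p = 0.041). BGIOSGA025169 had a larger but less certain change of 5.07 ± 1.56 on the log2 scale, which narrowly missed the threshold (edgeR adjusted p = 0.0506). It passed when AT1 replicate 1 (edgeR adjusted p = 0.0354) or ACK replicate 2 (0.0385) was left out. BGIOSGA005777 was 74.8, 75.9 and 101 FPKM and did not pass (log2 -0.81 ± 0.60, edgeR adjusted p = 0.327), although it passed without ACK replicate 1 (log2 -1.36, edgeR adjusted p = 0.0357).

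Both AT1 calls were lost in most fits that left out 1 library. Over all genes, 6912 were called in AT1 with all libraries. Without 1 library the number was between 1174 (without ACK replicate 3) and 7497 (without ACK replicate 2). The call of BGIOSGA013214 was retained in 1 of 6 fits that left out a library. It was lost without ACK replicate 1, 2 or 3 (edgeR adjusted p of 0.104, 0.0548 and 0.15) and without AT1 replicate 2 or 3 (0.0905 and 0.134). The call of BGIOSGA037804 was retained only without ACK replicate 1 and was lost without ACK replicate 2 or 3 (edgeR adjusted p of 0.0706 and 0.116) or AT1 replicate 1, 2 or 3 (0.0837, 0.0828 and 0.125). The log2 fold change became 5.002 for BGIOSGA013214 without ACK replicate 2 and 3.04 for BGIOSGA037804 without ACK replicate 1. The median log2 fold change of all genes was -0.13 in AT1, and -0.11 with median-ratio size factors.

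In BT1, BGIOSGA037804 was 12.1, 14.1 and 35.9 FPKM, and every library exceeded the 3 BCK libraries. It rose 7.68-fold (log2 2.94 ± 0.70 SE, edgeR adjusted p = 0.0286) and was the only NCED gene called there, beside 22.8% of all genes. BGIOSGA025169 was 44.6, 13.5 and 3.56 FPKM in BT1 and just missed the threshold (log2 3.44 ± 1.08, edgeR adjusted p = 0.0577), but passed without BT1 replicate 3, the shallow library (0.0404).

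BGIOSGA013214 was 35.8, 4.12 and 10.3 FPKM in BT1 and overlapped BCK (log2 1.30 ± 1.04, edgeR adjusted p = 0.378). BGIOSGA005777 was 34.5, 104 and 118 FPKM (log2 -1.19 ± 0.73, edgeR adjusted p = 0.262). The BT1 library with the most BGIOSGA025169, replicate 1, thus had the least BGIOSGA005777. The call of BGIOSGA037804 was retained without BCK replicate 1. It was lost without BCK replicate 2 or 3 (edgeR adjusted p of 0.0623 and 0.0532) and without BT1 replicate 1, 2 or 3 (0.0607, 0.0891 and 0.0541). The carboxylase genes BGIOSGA037257 and BGIOSGA037260 were below every BCK library in all 3 BT1 libraries but did not pass (log2 -1.11 ± 0.58 and -1.47 ± 0.53, edgeR adjusted p of 0.192 and 0.084), and their part was not tested.

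The cultivars and the durations were then compared directly. None of the 4 genes was called between BT1 and AT1 (log2 fold changes from -1.03 to 0.00), where 0.0718% of all genes were called. Neither edgeR at an unadjusted p under 0.05 nor DESeq2 selected any of the 4. From 1 to 3 days of cold in DC907, BGIOSGA025169 and BGIOSGA013214 were higher in every BT3 library than in every BT1 library. Their changes of 2.92 ± 0.87 and 2.66 ± 0.83 on the log2 scale missed the threshold (edgeR adjusted p of 0.0583 and 0.065). Of the 4 genes 0 passed with edgeR and 2 with DESeq2, and 17.5% of all genes passed with edgeR. BGIOSGA025169 passed without BT1 replicate 1 (edgeR adjusted p = 0.0337) or replicate 3 (0.0409), and BGIOSGA013214 without BT1 replicate 1 (0.0306). At an unadjusted p under 0.05 both genes passed, and the other 2 did not.

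In the libraries labelled AT3, the paralogue that was the highest of the 4 in the controls was low. BGIOSGA005777 was 12.8, 5.98 and 9.49 FPKM there, below all 3 ACK libraries and with the lowest group mean of the series. It fell by 4.36 ± 0.78 on the log2 scale, a 20.6-fold change (edgeR adjusted p = 0.0186), and was the only NCED gene called, beside 19.8% of all genes. With BCK as the control the change was -4.55 ± 0.80 on the log2 scale (edgeR adjusted p = 0.0188). The call was lost without ACK replicate 3 (edgeR adjusted p = 0.0878), AT3 replicate 1 (0.0677) or AT3 replicate 3 (0.0788). In each of these fits 0 of all genes were called, against 4542 with all libraries.

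The carboxylase gene BGIOSGA037257 was 1897, 91.1 and 8540 FPKM in AT3, of which replicate 3 lay within the ACK range, whereas BGIOSGA005777 was low in every AT3 library. BGIOSGA037260, the other carboxylase gene, was 342, 73.3 and 1215 FPKM in AT3. Neither of these genes passed in AT3 (edgeR adjusted p of 0.529 and 0.191), and their part in the fall of BGIOSGA005777 was not tested.

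The other paralogues differed strongly between the AT3 libraries. BGIOSGA025169 was 91.7, 0.160 and 5.68 FPKM, a 574-fold range. BGIOSGA013214 followed the same order at 39.5, 1.17 and 9.29 FPKM, and BGIOSGA037804 was 9.38, 2.56 and 4.19 FPKM. All 3 were lowest in replicate 2, the library with the least carboxylase expression. None of them passed (log2 4.59 ± 2.11, 3.00 ± 1.31 and 1.57 ± 1.17, edgeR adjusted p of 0.163, 0.145 and 0.366). Without AT3 replicate 2, BGIOSGA013214 passed (edgeR adjusted p = 0.0395).

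**Figure D3:**
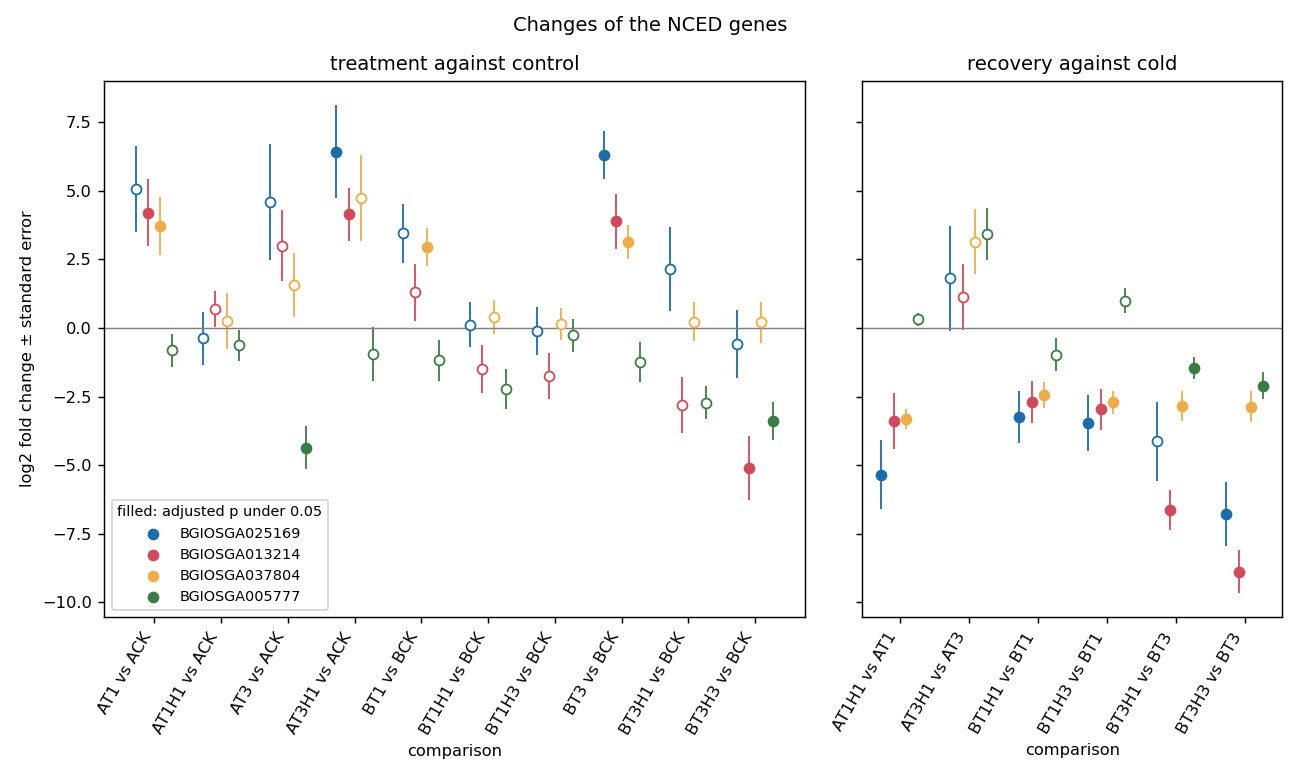
log2 fold change ± standard error of each NCED gene in the 10 comparisons with the control (left) and the 6 comparisons of recovery with the preceding cold (right); filled points have an edgeR adjusted p under 0.05. BGIOSGA025169, BGIOSGA013214 and BGIOSGA037804 lie above 0 in the cold and in AT3H1, and below 0 in 5 of the 6 recovery comparisons.

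One day at room temperature after 1 day of cold left the NCED genes near the ACK values. In AT1H1, BGIOSGA025169 was 1.77, 1.17 and 0.759 FPKM, BGIOSGA013214 was 4.67, 5.10 and 2.35, and BGIOSGA037804 was 2.94, 3.22 and 1.46. All of these libraries lay within or close to the ACK range. Against AT1, BGIOSGA037804 fell by 3.33 ± 0.36 on the log2 scale (edgeR adjusted p = 0.000562), BGIOSGA025169 by 5.34 ± 1.25 (0.0118) and BGIOSGA013214 by 3.38 ± 1.01 (0.0298). These 3 calls stood beside 47.6% of all genes tested. With a replicate block 1 of them was left, that of BGIOSGA037804, as BGIOSGA025169 and BGIOSGA013214 had edgeR adjusted p of 0.0717 and 0.14.

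BGIOSGA037804 kept its call in all 6 edgeR fits without 1 library. BGIOSGA025169 lost it without AT1H1 replicate 2 or 3 (edgeR adjusted p of 0.0519 and 0.0513), and BGIOSGA013214 without AT1 replicate 3 (0.083) or AT1H1 replicate 1, 2 or 3 (0.0892, 0.0845 and 0.101). The log2 fold change of BGIOSGA025169 became -5.96 without AT1 replicate 1 and -4.72 without AT1 replicate 2, and that of BGIOSGA013214 became -4.0004 without AT1 replicate 1. BGIOSGA005777 was 116, 153 and 167 FPKM in AT1H1, above every AT1 library, but its change of 0.31 ± 0.23 was not called (edgeR adjusted p = 0.303). Against ACK, 0 of the 4 genes passed in AT1H1, with log2 fold changes from -0.64 to 0.69 and 0 also at an unadjusted p under 0.05 and with DESeq2, and 0.00878% of all genes were called.

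The same 3 paralogues fell in DC907 from 1 day of cold (BT1) to the recovery that followed it. BGIOSGA037804 was 3.18, 6.16 and 5.56 FPKM in BT1H1 and 3.36, 3.44 and 4.70 in BT1H3, below every BT1 library. It fell by 2.45 ± 0.48 on the log2 scale in BT1H1 (edgeR adjusted p = 0.0113) and by 2.71 ± 0.43 in BT1H3 (0.00373), in each case in all 6 edgeR fits without 1 library. BGIOSGA025169 was 5.49, 2.004 and 1.70 FPKM in BT1H1 and 1.13, 1.33 and 4.59 in BT1H3. BGIOSGA013214 was between 2.41 and 4.45 FPKM in these 6 libraries, a narrow range for this gene.

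BGIOSGA025169 fell by 3.25 ± 0.96 on the log2 scale in BT1H1 (edgeR adjusted p = 0.0384) and by 3.47 ± 1.01 in BT1H3 (0.0299). BGIOSGA013214 fell by 2.69 ± 0.76 (edgeR adjusted p = 0.0335) and 2.96 ± 0.74 (0.018). Thus 3 of the 4 genes were called in both comparisons, beside 34.7% of all genes in BT1H1 and 44% in BT1H3. In the fit of all 36 libraries 1 of the 3 was left in BT1H1, that of BGIOSGA037804, and 2 in BT1H3, without BGIOSGA025169 (edgeR adjusted p = 0.101). With a replicate block BGIOSGA013214 was lost in BT1H1 (edgeR adjusted p = 0.105), where BGIOSGA005777 was called in its place (0.043), and BGIOSGA025169 was lost in BT1H3 (0.0875).

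Of the calls without a block, those of BGIOSGA025169 were retained in 1 and 2 of 6 edgeR fits without 1 library, and those of BGIOSGA013214 in 2 and 3. In BT1H1 both were lost without BT1 replicate 1, which held the most of both genes in BT1 (edgeR adjusted p of 0.136 and 0.0846), and without BT1H1 replicate 1 (0.0594 and 0.0986), 2 (0.12 and 0.0882) or 3 (0.101 and 0.087). That of BGIOSGA025169 was also lost without BT1 replicate 2 (0.0921). In BT1H3 they were lost without BT1H3 replicate 1 (0.0986 and 0.0674) or 2 (0.09 and 0.0548). In addition BGIOSGA025169 was lost without BT1 replicate 1 (0.0903) or 2 (0.0651), and BGIOSGA013214 without BT1H3 replicate 3 (0.0625). BT1 replicate 1 also moved the sizes, since without it the log2 fold changes of BGIOSGA025169 and BGIOSGA013214 were -1.93 and -1.33 in BT1H1 and -2.16 and -1.64 in BT1H3. That of BGIOSGA025169 was -3.91 in BT1H1 without BT1H1 replicate 1 and -4.39 in BT1H3 without BT1H3 replicate 3. That of BGIOSGA037804 was -1.83 in BT1H1 without BT1 replicate 3.

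The carboxylase genes fell from BT1 to BT1H1 as well, BGIOSGA037257 by 2.03 ± 0.41 and BGIOSGA037260 by 2.86 ± 0.85 on the log2 scale (edgeR adjusted p of 0.0119 and 0.0398). The first call was lost without BT1H1 replicate 2 (0.0599), and the second was retained only without BT1H1 replicate 1. In BT1H3 they did not pass (edgeR adjusted p of 0.12 and 0.0511). Their part in the changes of the NCED genes was not tested.

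BGIOSGA005777 followed a course of its own in these groups. It was 25.7, 80.1 and 70.3 FPKM in BT1H1, which overlapped BT1, and 262, 168 and 206 in BT1H3, above every BT1 library. Neither difference from BT1 passed (edgeR adjusted p of 0.236 and 0.122). BT1H3 had the highest group mean of this gene, 212 ± 47.5 FPKM (SD, n = 3), and BGIOSGA005777 again made up 95.9% of the summed FPKM. Against BCK, 0 of the 4 genes passed in BT1H1 or BT1H3 and 0% of all genes were called. At an unadjusted p under 0.05, 1 of the 4 passed in BT1H1, and DESeq2 also called 1, whereas both counts were 0 in BT1H3. Over all genes, 6546 and 6968 passed an unadjusted p under 0.05 in these comparisons.

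In recovery after 3 days of cold, the NCED genes of DC907 were lower than in BT3. BGIOSGA013214 was 0.817, 0.966 and 2.42 FPKM in BT3H1 and 0.0681, 0.266 and 0.437 in BT3H3. It fell by 6.64 ± 0.71 on the log2 scale in BT3H1 (edgeR adjusted p = 0.00111) and by 8.88 ± 0.77 in BT3H3 (0.000433), and the latter was the largest change of any NCED gene between groups of libraries. BGIOSGA037804 was 6.26, 5.85 and 1.49 FPKM in BT3H1 and 1.65, 3.00 and 7.14 in BT3H3. It fell by 2.86 ± 0.55 (edgeR adjusted p = 0.00696) and 2.87 ± 0.57 (0.00635) on the log2 scale. All 4 of these calls were retained in every edgeR fit without 1 library. BGIOSGA013214 changed by -7.32 in BT3H1 without BT3H1 replicate 3 and by -9.52 in BT3H3 without BT3H3 replicate 3, and BGIOSGA037804 by -3.64 in BT3H3 without that library.

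BGIOSGA025169 was 1.56, 0.736 and 33.1 FPKM in BT3H1, so that replicate 3 remained far above the highest control library. Its change from BT3 was -4.14 ± 1.45 on the log2 scale and just missed the threshold (edgeR adjusted p = 0.0534), but passed without that library (log2 -7.55, edgeR adjusted p = 0.00335). Replicate 3 was not high for the other paralogues, since BGIOSGA013214 was 2.42 and BGIOSGA037804 1.49 FPKM in it. By BT3H3, BGIOSGA025169 was 0.0791, 0.927 and 4.03 FPKM, and fell by 6.79 ± 1.17 on the log2 scale (edgeR adjusted p = 0.0036), in all 6 fits without 1 library. Its log2 fold change was -6.16 without BT3H3 replicate 1 and -8.55 without BT3H3 replicate 3.

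BGIOSGA005777, whose change from BCK had not passed in BT3, was low in recovery after 3 days of cold. It was 41.3, 40.5 and 45.0 FPKM in BT3H1 and 16.3, 36.7 and 19.6 in BT3H3, all below every BCK and every BT3 library. Against BT3 it fell by 1.46 ± 0.41 on the log2 scale in BT3H1 (edgeR adjusted p = 0.0265) and by 2.10 ± 0.50 in BT3H3 (0.0125). The first call was lost without BT3H1 replicate 1, 2 or 3 (edgeR adjusted p of 0.0795, 0.0811 and 0.0628), and the second without BT3H3 replicate 1 (0.0506). Without BT3 replicate 1 the log2 fold changes were -0.86 and -1.48. The carboxylase gene BGIOSGA037260 fell from BT3 to BT3H3 by 2.39 ± 0.72 on the log2 scale (edgeR adjusted p = 0.0289), and its part was not tested. That call was retained only without BT3 replicate 2 or BT3H3 replicate 3. In all, 3 of the 4 genes were called in BT3H1 against BT3, beside 47.9% of all genes, and 4 of 4 in BT3H3, beside 51.8%. In the fit of all 36 libraries the call of BGIOSGA005777 in BT3H1 was lost (edgeR adjusted p = 0.0999).

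Set against the control, recovery after 3 days left 2 NCED genes below their starting level. In BT3H3, BGIOSGA005777 fell 10.5-fold from BCK (log2 -3.39 ± 0.68, edgeR adjusted p = 0.0257) and BGIOSGA013214 fell 34.3-fold (log2 -5.10 ± 1.16, edgeR adjusted p = 0.0334). BGIOSGA013214 rested on 2 to 15 counts per library there. Of the 4 genes 2 were called in BT3H3, beside 18.1% of all genes. Both calls were lost without BT3H3 replicate 1 (edgeR adjusted p of 0.116 and 0.125), 2 (0.0971 and 0.123) or 3 (0.0982 and 0.0936). In these fits 0, 4 and 0 of all genes were called, against 4095 with all libraries. The log2 fold change of BGIOSGA013214 was -3.48 without BCK replicate 2, the control library with the most of it, and -5.72 without BT3H3 replicate 3. That of BGIOSGA005777 was -2.60 without BCK replicate 1.

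In BT3H1 against BCK, 0 of the 4 passed with edgeR, beside 7.4% of all genes, while 2 passed at an unadjusted p under 0.05 and DESeq2 called 2. BGIOSGA005777 came closest (log2 -2.72 ± 0.61, edgeR adjusted p = 0.0503) and passed without BCK replicate 3 (0.0447). The carboxylase genes moved with it: BGIOSGA037257 changed by -2.82 ± 0.59 in BT3H1 and -2.31 ± 0.55 in BT3H3 on the log2 scale (edgeR adjusted p of 0.0454 and 0.0359). BGIOSGA037260 changed by -2.97 ± 0.63 and -3.93 ± 0.64 (edgeR adjusted p of 0.0464 and 0.0195). Both calls in BT3H1 were retained only without BCK replicate 2, and those in BT3H3 were lost without BT3H3 replicate 1, 2 or 3 and, for BGIOSGA037257, without BCK replicate 3. Their part in the lower level of BGIOSGA005777 was not tested.

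Of the libraries labelled AT3H1, replicates 1 and 2 lay above every library of the other recovery groups for the 3 cold-induced paralogues. BGIOSGA025169 was 192, 112 and 4.73 FPKM, BGIOSGA013214 was 58.2, 32.4 and 10.03, and BGIOSGA037804 was 46.6, 88.1 and 2.40. Replicates 1 and 2 were thus near or above the BT3 values for BGIOSGA025169 and BGIOSGA037804, while replicate 3 was much lower for all 3 genes. In replicate 3, BGIOSGA037804 lay within the ACK range. There BGIOSGA025169 was below BT1H1 replicate 1 (5.49 FPKM) and BT3H1 replicate 3 (33.1), whereas BGIOSGA013214 was above every library of the other recovery groups.

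Against ACK, BGIOSGA025169 rose 85.6-fold (log2 6.42 ± 1.69, edgeR adjusted p = 0.0483) and BGIOSGA013214 rose 17.6-fold (log2 4.14 ± 0.97, edgeR adjusted p = 0.039). These were 2 of the 4 genes, beside 14.2% of all genes, and the median log2 fold change of all genes was -0.11. BGIOSGA037804 did not pass (log2 4.73 ± 1.55, edgeR adjusted p = 0.0795), except without AT3H1 replicate 3 (0.0475). With BCK as the control both calls were lost, at log2 5.77 ± 1.52 and 2.29 ± 1.08 (edgeR adjusted p of 0.051 and 0.173). They were also lost without ACK replicate 1 (0.114 and 0.083), ACK replicate 3 (0.149 and 0.138), AT3H1 replicate 1 (0.139 and 0.119) or AT3H1 replicate 2 (0.126 and 0.117), each an edgeR adjusted p. In these fits 372, 0, 76 and 0 of all genes were called, in that order, against 3226 with all libraries. The log2 fold change of BGIOSGA025169 was 8.32 without ACK replicate 2, 7.02 without AT3H1 replicate 3 and 5.35 without AT3H1 replicate 1, and that of BGIOSGA013214 was 4.99 without ACK replicate 2 and 3.23 without AT3H1 replicate 1.

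BGIOSGA005777 split the AT3H1 libraries in another way, with 9.08, 147 and 179 FPKM. Replicate 1, which had the most BGIOSGA025169 and BGIOSGA013214, had the least BGIOSGA005777 and the lowest carboxylase value of the 36 libraries. Against ACK it did not pass (log2 -0.95 ± 0.97, edgeR adjusted p = 0.513). In AT3H1 the carboxylase gene BGIOSGA037257 fell by 4.28 ± 1.04 on the log2 scale (edgeR adjusted p = 0.0418) and BGIOSGA037260 fell by 5.81 ± 1.13 (0.0296), and their part in these results was not tested. The first call was retained only without ACK replicate 2, and the second without ACK replicate 2 or AT3H1 replicate 3.

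Between AT3 and AT3H1 0 of the 4 genes passed, beside 11.7% of all genes, although all 4 had positive log2 fold changes of 1.80 ± 1.90, 1.13 ± 1.20, 3.15 ± 1.19 and 3.43 ± 0.93. At an unadjusted p under 0.05, 2 passed, and DESeq2 called 2. BGIOSGA005777 came closest, with an edgeR adjusted p of 0.057.

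An interaction term was used to ask whether the cultivars responded differently. At T1, T1H1, T3 and T3H1, 0 of the 4 genes passed with edgeR, beside 0.00403%, 0%, 0.0478% and 0.0243% of all genes. DESeq2 called 0, 0, 0 and 1 of them, and 0, 0, 1 and 2 passed an unadjusted p under 0.05. The largest difference was that of BGIOSGA013214 at T3H1, where the change in DC907 minus that in the libraries labelled 9311 was -6.95 ± 1.53 on the log2 scale (edgeR adjusted p = 0.194). At T3, BGIOSGA005777 differed by 3.17 ± 1.05 (edgeR adjusted p = 0.416). In both cases the 9311 side consisted of the libraries labelled AT3 or AT3H1.

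Ordered by group mean, BGIOSGA025169 ran from BT3 (169 ± 69.2 FPKM, SD, n = 3) over AT3H1 (103 ± 94.2), AT1 (36.9 ± 33.5), AT3 (32.5 ± 51.4), BT1 (20.6 ± 21.4) and BT3H1 (11.8 ± 18.5) to the remaining 6 groups, which lay between 1.23 and 3.06 FPKM. None of its 11 pairs of neighbouring groups was separated by the range of their libraries. BGIOSGA013214 had the same 5 groups in the lead, with AT3 and BT1 exchanged, and BCK in place of BT3H1. The order was BT3 (114 ± 69.2), AT3H1 (33.5 ± 24.1), AT1 (30.8 ± 25.1), BT1 (16.7 ± 16.8), AT3 (16.6 ± 20.2) and BCK (8.34 ± 10.7). They were followed by AT1H1 (4.04 ± 1.48), BT1H1 (3.52 ± 0.80), BT1H3 (2.67 ± 0.25), ACK (2.29 ± 1.90), BT3H1 (1.40 ± 0.88) and BT3H3 (0.257 ± 0.18). In that order only BT1H1 and BT1H3, and BT3H1 and BT3H3, did not overlap.

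BGIOSGA037804 was highest in AT3H1 (45.7 ± 42.9), followed by BT3 (24.9 ± 6.10), BT1 (20.7 ± 13.2) and AT1 (18.4 ± 3.86), and AT1 was separated from the next group, AT3 (5.38 ± 3.56). Its 7 lowest groups, from BT1H1 (4.96) to ACK (1.95), all overlapped their neighbours.

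BGIOSGA005777 was ordered differently. BT1H3 (212 ± 47.5), ACK (207 ± 135), BCK (205 ± 136) and AT1H1 (145 ± 26.5) led, and AT3H1 (111 ± 90.1), BT3 (87.2 ± 43.8), BT1 (85.7 ± 44.9), AT1 (83.9 ± 14.9) and BT1H1 (58.7 ± 29.0) followed. BT3H1 (42.2 ± 2.40), BT3H3 (24.2 ± 10.96) and AT3 (9.41 ± 3.39) came last, and the ranges of these last 3 groups did not overlap.

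The 3 cold-induced paralogues also varied together from library to library. Over the 36 libraries, log2(FPKM + 1) of BGIOSGA025169 and BGIOSGA013214 had a Pearson r of 0.89, and r was 0.83 after the group means had been subtracted. BGIOSGA037804 was less closely tied to them, with r of 0.74 and 0.71 over the libraries and 0.40 and 0.40 within groups. BGIOSGA005777 had r of -0.16, 0.01 and -0.05 with BGIOSGA025169, BGIOSGA013214 and BGIOSGA037804, but 0.55 with the carboxylase gene BGIOSGA037257. These are descriptions, since libraries of 1 group share their treatment and all values of 1 library share its RNA.

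**Figure D4:**
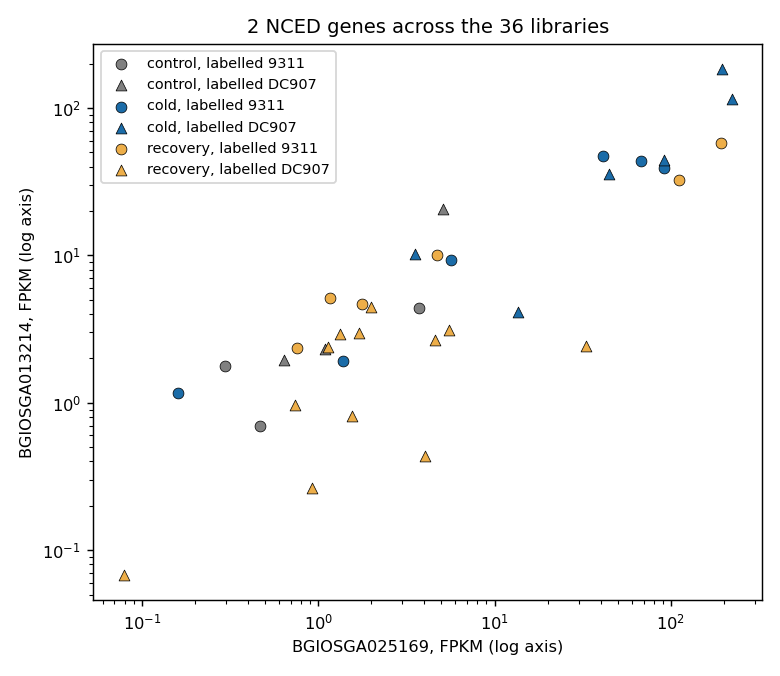
FPKM of BGIOSGA013214 against that of BGIOSGA025169 in the 36 libraries (both axes log); colours give control, cold and recovery, circles the libraries labelled 9311 and triangles those labelled DC907. The libraries lie along 1 diagonal, with BT3H1 replicate 3 (33.1 and 2.42 FPKM) to its lower right.

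Over the 26525 genes that reached a group mean of 1 FPKM somewhere in the series, the pattern most like that of BGIOSGA025169 over the 12 group means was that of BGIOSGA006602 (r = 0.98). Its mean FPKM was 201 in BT3, 87.1 in AT3H1 and 7.18 in ACK. BGIOSGA013214 and BGIOSGA037804 ranked 39 and 54 in that list, with r of 0.93 and 0.92. The gene most like BGIOSGA013214 was BGIOSGA001156 (r = 0.95), a low gene with a mean of 3.75 FPKM in BT3, and BGIOSGA025169 ranked 11 for it.

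BGIOSGA020179 was most like BGIOSGA037804 (r = 0.98), with a mean of 70.8 FPKM in BT3 and 21.0 in ACK. BGIOSGA017772 was most like BGIOSGA005777 (r = 0.95), with a mean of 49.9 FPKM in BCK and 11.3 in AT3. For BGIOSGA005777 the other NCED genes ranked 11196 or lower. The sources used here give no annotation for these 4 genes. On the lists of hormone genes described next, the closest were a glycosyltransferase (BGIOSGA016929) for BGIOSGA025169 and BGIOSGA013214 (r = 0.70 and 0.74), a lipoxygenase (BGIOSGA028970) for BGIOSGA037804 (r = 0.82) and an aldehyde dehydrogenase (BGIOSGA008719) for BGIOSGA005777 (r = 0.61).

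Other steps of the ABA pathway were represented by CYP707A7 (BGIOSGA029635), which belongs to the ABA-degrading hydroxylases, and SAPK2 (BGIOSGA026164), an ABA signalling kinase. CYP707A7 was 185, 91.0 and 129 FPKM in AT1, against 3.25, 11.9 and 6.08 in ACK, and rose by 4.76 ± 0.61 on the log2 scale (edgeR adjusted p = 0.00613). Within AT1 it was highest in replicate 1, the library in which BGIOSGA025169 and BGIOSGA013214 were at control level. Over the 36 libraries its r with these NCED genes was 0.52 and 0.60, and within groups 0.12 and 0.10. CYP707A7 also rose by 4.25 ± 1.08 in BT1 (edgeR adjusted p = 0.0339) and by 2.95 ± 0.88 in BT3 (0.0416). Each of these calls was retained in 1 of 6 fits without 1 library (edgeR adjusted p of at most 0.0927 and 0.118). That fit was the one without BCK replicate 1, where the changes were 5.42 and 4.26, and without BT1 replicate 3 the change in BT1 was 3.16. In the libraries labelled AT3H1, in contrast to the cold-induced NCED genes, it was at 5.48 to 10.6 FPKM and did not pass (edgeR adjusted p = 0.797).

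SAPK2 was 975, 443 and 647 FPKM in AT1 and 116 to 159 in ACK, and rose by 2.85 ± 0.44 (edgeR adjusted p = 0.00858, and 0.0551 without ACK replicate 3). It did not pass in BT1, BT3 or AT3 (edgeR adjusted p of 0.0623, 0.194 and 0.0502). Both genes fell from AT1 to AT1H1 and from BT1 or BT3 to each following recovery group. Beside them, 47.6% of all genes were called in AT1H1, 34.7% in BT1H1, 44% in BT1H3, 47.9% in BT3H1 and 51.8% in BT3H3. From AT3 to AT3H1, SAPK2 fell as well (log2 -1.71), beside 11.7% of all genes called, and CYP707A7 did not pass. That call was lost without AT3 replicate 1 or 3 or any 1 of the AT3H1 libraries (edgeR adjusted p from 0.0791 to 0.172). The calls of SAPK2 were lost in BT1H1 without BT1H1 replicate 2 (edgeR adjusted p = 0.0505) and in BT1H3 without BT1 replicate 2 (0.0555) or BT1H3 replicate 2 or 3 (0.0678 and 0.0809). CYP707A7 fell most from AT1 to AT1H1, by 6.60 ± 0.39 on the log2 scale (edgeR adjusted p = 0.000103), and was then between 1.66 and 2.12 FPKM.

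**Figure D5:**
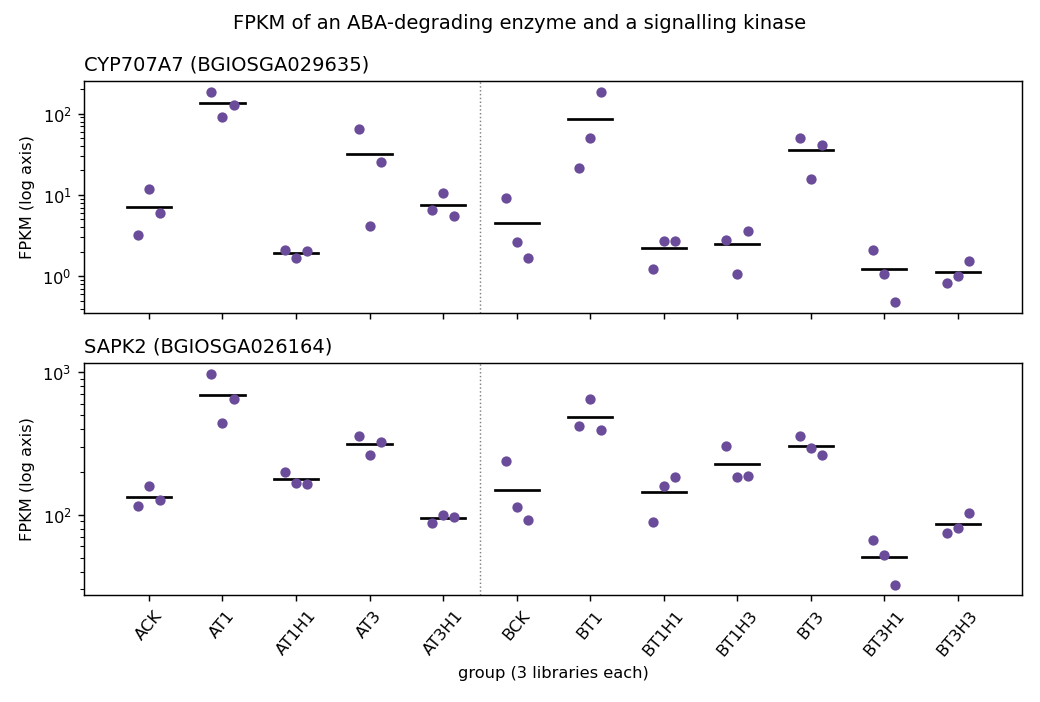
FPKM of CYP707A7 and SAPK2 in the 36 libraries (log axis), grouped by treatment. Points are libraries and bars are group means, with groups labelled 9311 left of the dotted line. CYP707A7 is 91.0 to 185 FPKM in AT1, and in AT3H1 it is 5.48 to 10.6 FPKM.

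The remaining rows of the study's heatmap of hormone synthesis form a list of 12 genes, CYP707A7 included, which the authors had also selected on these libraries. In AT1 10 of them could be tested and 8 rose, with a median log2 fold change of 4.62, against -0.13 over all genes, of which 30.5% were called. In BT1 8 of 10 rose (median 3.81, against -0.05), beside 22.8% of all genes, and in BT3 7 of 11 (median 2.95, against -0.09), beside 33.9%. In AT3, 1 of 11 rose and 1 fell, beside 19.8% of all genes, and in AT3H1 0 of 10 rose and 1 fell, beside 14.2%. The corresponding medians of the 4 NCED genes were 3.95 in AT1, 2.12 in BT1, 3.50 in BT3, 2.28 in AT3 and 4.43 in AT3H1.

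In recovery, 9 of 10 genes of this list fell in AT1H1 against AT1, beside 47.6% of all genes called. In DC907 7 of 10 fell in BT1H1 and 8 of 10 in BT1H3 against BT1, beside 34.7% and 44% of all genes, and 10 of 11 in BT3H1 and 8 of 11 in BT3H3 against BT3, beside 47.9% and 51.8%. In AT3H1 against AT3, 1 of 11 fell, beside 11.7%, and in none of these comparisons did a gene of the list rise.

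A flavin-containing monooxygenase (BGIOSGA015673), of a family that includes auxin-synthesis enzymes, was 14.8, 20.8 and 22.5 FPKM in AT1, against 1.06, 1.60 and 0.841 in ACK (log2 4.51 ± 0.39, edgeR adjusted p = 0.00401). In BT3 a lipoxygenase (BGIOSGA028970), of the family that opens jasmonate synthesis, was 119, 68.2 and 103 FPKM, against 1.90, 4.42 and 1.46 in BCK (log2 5.32 ± 0.55, edgeR adjusted p = 0.00517). An uncharacterised protein gene (BGIOSGA028973) was 1.72, 0.862 and 2.11 FPKM in BT3 and had 0, 1 and 0 counts in the BCK libraries (edgeR adjusted p = 0.00975, and 0.0568 without BT3 replicate 3).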

How the data were processed

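RNA was sequenced in 36 libraries, and the authors mapped the reads with HISAT2 and assembled new genes with Cufflinks. The authors deposited raw counts per gene and FPKM, which are counts divided by gene length and library total. The implied length agreed across libraries to a relative deviation of 1.19e-07, and 100% of annotated genes had a length divisible by 3, so lengths are coding lengths. The counting program, strand and treatment of reads shared by paralogues are not given in the sources used here, and reads that NCED paralogues share could be split between them. No column of another series was present, and 0 per-sample columns were left out.

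Counts were tested with edgeR 4.0.16 (R 4.3.3, limma 3.58.1): TMM, filterByExpr, a robust quasi-likelihood fit, Benjamini-Hochberg adjustment over all genes tested, and an adjusted p under 0.05. Each comparison used 6 libraries, an interaction 12, and no block. A standard error was obtained by dividing the log2 fold change by the root of its quasi-likelihood F. The procedure was also run on simulated counts, and no result given here rests on that run. The fit was varied by using DESeq2 1.42.0 or its median-ratio size factors, by dropping the filter or requiring 10 counts in each library, by fitting the 36 libraries together, by a replicate block, by leaving out each library, and by taking BCK as the control of AT3 and AT3H1. With 3 libraries against 3 an exact permutation test could not go below p = 0.1, so none was used. The depth was 10176660 to 18789555 counts per library.

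The named genes were the 4 NCED genes in every comparison, CYP707A7 and SAPK2, at most 2 further hormone genes per cold group with the smallest adjusted p, and the gene with the most similar pattern by Pearson r of log2(FPKM + 1). BGIOSGA008719 and BGIOSGA016929 come from the part of that rule on the most similar listed gene. The members and lists were chosen with earlier results of these data known, and the identifiers were read from the study's heatmap. The study's running text prints BGIOSGA013244 and BGIOSGA083804 beside this heatmap, and neither was used here. The reference table of gene names is of the japonica genome and matched 0 of these identifiers.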

Additional observations from a re-analysis of the deposited data

Results flagged for a closer look

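BGIOSGA013214 lay on opposite sides of the control mean in libraries labelled with different cultivars after 1 day of recovery. At T3H1, every AT3H1 library (58.2, 32.4 and 10.03 FPKM) lay above the mean of ACK on the log2 scale and every BT3H1 library (0.817, 0.966 and 2.42 FPKM) lay below the mean of BCK. BT3H1 replicate 3 was still above BCK replicates 1 and 3 (2.33 and 1.96 FPKM), as BCK replicate 2 (20.7 FPKM) raised that mean. The DC907 change less that of the libraries labelled 9311 was -6.95 on the log2 scale, and the interaction did not pass with edgeR's quasi-likelihood test (adjusted p = 0.194, and between 0.000108 and 0.348 in the alternatives that kept all libraries). These AT3H1 libraries lay on the DC907 side of the cultivar markers, so the contrast cannot be read as one between cultivars, and their carboxylase level was low; the part of either was not tested. At T1H1 the difference was -2.19 on the log2 scale (edgeR adjusted p = 0.64), with AT1H1 at 2.35 to 5.10 FPKM and BT1H1 at 2.99 to 4.45 FPKM, and BCK replicate 2 (20.7 FPKM) raised the BCK mean.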

How the results depend on the processing

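The number of NCED genes called differed between settings that kept all libraries in 7 of the 10 comparisons with a control. DESeq2 called 3 instead of 1 in AT3, 3 instead of 2 in AT1 and AT3H1, 2 instead of 1 in BT1, 1 instead of 0 in BT1H1 and 2 instead of 0 in BT3H1. The fit of all 36 libraries called 3 in AT1, AT3 and AT3H1, 1 in BT1H1 and 1 in BT3H1. Without a filter 0 instead of 2 were called in AT1 and 1 instead of 2 in AT3H1. With at least 10 counts in every library, the count was 1 in AT1, AT3H1 and BT3H3, where another called gene was no longer tested, 2 in BT1 and 1 in BT3H1. With BCK as the control of AT3H1 it was 0. With the replicate block it was 0 in AT1, AT3, BT1 and BT3H3 and 1 in AT3H1, while all 3 calls of BT3 were retained. In no comparison were all 3 correlations of same-numbered libraries above 0.1, which does not exclude that the replicate numbers pair the samples. Leaving out 1 library gave 0 to 2 calls in AT1, 0 to 2 in AT3, 0 to 3 in AT3H1, 0 to 1 in BT1, 1 to 3 in BT3, 0 to 1 in BT3H1, 0 to 2 in BT3H3, and 0 in the other 3. In the comparisons of recovery with cold, the block called 1 instead of 3 in AT1H1, 2 instead of 3 in BT1H3 and 4 instead of 3 in BT3H1. The fit of all 36 libraries called 1 instead of 3 in BT1H1, 2 instead of 3 in BT1H3 and BT3H1, and 2 instead of 0 in AT3H1. DESeq2 called 4 instead of 3 in BT3H1 and 2 instead of 0 in AT3H1. No filter gave 2 instead of 3 in AT1H1 and BT1H1, and 10 counts in every library 2 instead of 4 in BT3H3. Of the 27 calls, 18 were lost without some single library, and the fold change of 22 moved by a factor of more than 1.5. Over all genes the number called also fell in many of these fits, as to 0 in AT3 without ACK replicate 3, against 4542. Of 92 pairs of gene and comparison, 27 were called, and none of the called changed sign in any alternative. Of the changes given with their values, 1 changed sign: BGIOSGA013214 in BT1 was -0.043 on the log2 scale without BT1 replicate 1 (range -0.043 to 2.97). Over all genes, DESeq2 called 8676 against 4542 in AT3, 7100 against 3226 in AT3H1, 5053 against 0 in BT1H1 and 5320 against 0 in BT1H3. The fit of all 36 libraries called 12651 in AT3, and the replicate block called 0 against 6912 in AT1. In the fit of all 36 libraries the median log2 fold change of all genes was -0.24 in AT1. The gene most alike in pattern changed in 4 of 12 alternatives. The causes of these differences were not tested. With 3 libraries per group and up to 574-fold spread within a group, smaller changes of these genes may have been missed.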
